A study of Rattus norvegicus with 18 samples.

Results

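The genes described here drive DNA replication and cell division, and their RNA was followed in the tibialis anterior, a muscle at the front of the lower leg, of 18 rat libraries. They were chosen by symbol from a list of 35 genes that mark cycling cells. Of these, 33 had an entry among the 30560 entries of the gene table, and E2f1 and Hmgb2 were not analysed here. The members fall into 11 genes of replication and entry into S phase (Mcm2, Mcm3, Mcm4, Mcm5, Mcm6, Mcm7, Pcna, Rrm2, Tyms, Tk1 and Ccne1) and 22 genes of G2 and mitosis (Mki67, Top2a, Tpx2, Ccna2, Ccnb1, Ccnb2, Cdk1, Bub1, Bub1b, Aurka, Aurkb, Plk1, Kif11, Kif20a, Cenpe, Cenpf, Birc5, Nusap1, Prc1, Ube2c, Cdc20 and Foxm1).

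The libraries came from wild-type (WT) rats at 9 months (3 libraries), DMD rats at 9 months (3), p16-null DMD rats at 9 months (6), and WT rats at 3 months (3) and 18 months (3). DMD rats model Duchenne muscular dystrophy, the muscle-wasting disease caused by loss of dystrophin. The p16-null DMD group carries the same DMD genotype and is labelled as also lacking p16, an inhibitor of the kinases that release the cell cycle brake Rb. The labels used here name genotype, tissue and age only. No strain, allele or agent is given, and nothing beyond the titles says that libraries of a group are separate rats, so p-values measure the spread between libraries, which may be technical.

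In an animal tissue most cells rest outside the cell cycle, and mature myofibres have left it for good. On entry into S phase, E2F transcription factors switch on the MCM helicase that unwinds DNA, the sliding clamp Pcna and the enzymes that supply nucleotides. Later the MuvB complex, with B-Myb and Foxm1, switches on the genes of mitosis through a promoter element called CHR. CHR often lies close to CCAAT boxes bound by NF-Y. In injured or dystrophic muscle the cells known to divide include satellite cells, macrophages, fibro-adipogenic progenitors and endothelial cells.

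The promoters of 3 mitosis genes and 1 replication gene are shown to let these elements be read, from among the genes whose rise in DMD muscle held under every alternative run. Each is the 250 bases before the annotated start in the RefSeq annotation of GRCr8, printed 5′ to 3′ on the gene's own strand, with the motif matches in capitals. Mki67 lies at chr1:199952594-199952843 on the minus strand, Top2a at chr10:84473094-84473343 on the minus strand, Cdk1 at chr20:19265043-19265292 on the plus strand and Mcm6 at chr13:42404353-42404602 on the minus strand. The study's files use another build, mRatBN7.2, so these positions serve to place the sequences only.
Mki67: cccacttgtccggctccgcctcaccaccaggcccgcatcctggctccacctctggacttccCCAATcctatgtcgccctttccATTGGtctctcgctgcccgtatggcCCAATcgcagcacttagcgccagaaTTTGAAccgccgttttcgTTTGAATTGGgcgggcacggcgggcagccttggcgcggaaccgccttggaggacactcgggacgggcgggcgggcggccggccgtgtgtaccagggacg
Top2a: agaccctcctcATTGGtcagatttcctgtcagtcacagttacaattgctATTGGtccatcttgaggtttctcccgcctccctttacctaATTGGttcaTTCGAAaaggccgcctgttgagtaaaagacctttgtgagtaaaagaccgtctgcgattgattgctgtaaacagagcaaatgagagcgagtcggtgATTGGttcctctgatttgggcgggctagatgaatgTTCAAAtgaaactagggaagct
Cdk1: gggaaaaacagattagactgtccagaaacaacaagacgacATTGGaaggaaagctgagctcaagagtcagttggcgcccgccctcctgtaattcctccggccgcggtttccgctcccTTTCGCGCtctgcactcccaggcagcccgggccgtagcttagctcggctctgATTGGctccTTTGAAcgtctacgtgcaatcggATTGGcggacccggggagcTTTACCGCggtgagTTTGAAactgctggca
Mcm6: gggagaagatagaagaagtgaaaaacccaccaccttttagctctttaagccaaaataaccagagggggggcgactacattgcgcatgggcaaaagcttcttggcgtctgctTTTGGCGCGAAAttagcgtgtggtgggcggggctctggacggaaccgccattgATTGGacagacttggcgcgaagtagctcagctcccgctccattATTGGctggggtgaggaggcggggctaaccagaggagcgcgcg
3 motifs were searched on both strands. CHR was spelled TTTGAA, with TTCGAA as its second form. The NF-Y motif was CCAAT, which reads ATTGG where the match is on the other strand, and the E2F-like motif was TTTNNCGC. A match on the other strand is in capitals too. Matches can overlap: a CHR and a CCAAT match share bases in Mki67, and 2 E2F-like matches share bases in Mcm6. The Mki67 and Top2a windows each held 2 CHR and 4 CCAAT matches and no E2F-like match, and the Cdk1 window held 2 CHR, 3 CCAAT and 2 E2F-like matches. The Mcm6 window held no CHR match, 2 CCAAT matches and 2 E2F-like matches. Cenpf and Mcm3, whose rise also held under every alternative run, are not printed. Their windows each held 3 CCAAT matches, 0 CHR matches and 0 E2F-like matches, so the printed windows do not stand for all such genes.

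A window was found for 26 of the 33 members. Among the 17 mitosis genes with a window, 47.1% held CHR, 82.4% held CCAAT and 17.6% held the E2F-like motif. Among the 9 replication genes, the shares were 22.2%, 55.6% and 55.6%. In all 33465 windows of the same length they were 17.4%, 34% and 4.11%. These shares describe letters in a window and are not evidence of binding.

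Library totals ran from 9607819 to 21992631 estimated counts, and levels below are counts scaled to library size (CPM), on a common scale set by trimmed mean of M values (TMM) over all 18 libraries. Each 9-month contrast was tested over 14801 genes. Of these, 3914 were higher and 3228 lower in DMD than in WT (edgeR quasi-likelihood test, Benjamini-Hochberg adjusted p under 0.05). With library totals as the only scaling the split was 7691 higher and 1240 lower, and the median gene moved from 0.11 to 0.76 on the log2 scale. The labels were checked on Dmd, the dystrophin gene, which lay at 114 to 168 CPM in WT and at 31.4 to 44.3 CPM in DMD and 30.9 to 54.1 CPM in p16-null DMD at 9 months. Cdkn2a, the gene of p16, lay at 10.1 to 15.3 CPM in the p16-null DMD libraries and at 10.7 to 19.4 CPM in DMD, and gene-level counts pool its p16 and Arf transcripts, so they do not check the p16-null label. Ckm, the muscle creatine kinase that marks myofibres, was abundant in every group, with group means from 5100 CPM in DMD to 23700 CPM in WT at 3 months.

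Compared per transcript length, on the deposited TPM scale (transcripts scaled to length and depth), the members formed a low tier with few exceptions. In WT muscle at 9 months Tpx2, a spindle assembly factor, was the member with the highest mean at 34.9 ± 8.9 TPM (SD, n = 3), followed by Pcna at 29.5 ± 4.61 TPM (SD, n = 3), and these neighbours did not differ beyond their spread. Mcm7 followed at 8.29 ± 0.927 TPM and Mcm4 at 4.34 ± 1.60 TPM, each over 3 libraries. The other mitosis members had means of 0 to 1.51 TPM, with the kinase Aurka, which matures the spindle poles, at the top of that range.

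In DMD muscle the order of TPM levels was different. Pcna led at 62.9 ± 13.0 TPM (SD, n = 3), Mcm4 and Mcm7 followed at 11.7 and 11.2 TPM, and Tpx2 stood at 5.69 ± 2.98 TPM (SD, n = 3). The remaining mitosis members ranged from 0.46 TPM for the checkpoint kinase Bub1b to 4.70 TPM for Aurka. In p16-null DMD muscle the leading TPM means were again Pcna (64.1), Mcm7 (13.5) and Mcm4 (11.4), and the leading mitosis gene was Ube2c, which loads ubiquitin for the anaphase-promoting complex, at 6.54 TPM.

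Summed over the 11 replication genes, the level was 82.3 ± 10.6 CPM in WT at 9 months, 120 ± 20.4 CPM in DMD (SD, n = 3 each) and 133 ± 28.8 CPM in p16-null DMD (SD, n = 6). The WT groups of 3 and 18 months lay at 91.1 ± 6.3 and 105 ± 2.98 CPM. Pcna alone made up 35.1 CPM of the WT sum at 9 months and 43.6 CPM of the DMD sum.

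Summed over the mitosis genes without Tpx2, the level was 19.5 ± 3.72 CPM in WT at 9 months, 56.0 ± 17.7 CPM in DMD (SD, n = 3 each) and 81.7 ± 37.1 CPM in p16-null DMD (SD, n = 6). The WT libraries of 3 months held 28.4 ± 0.264 CPM and those of 18 months 40.6 ± 6.27 CPM. The WT libraries of 9 months held 15.4 to 22.7 CPM, the DMD libraries 43.4 to 76.3 CPM and the p16-null DMD libraries 27.2 to 117 CPM. Without Tpx2, every dystrophic library lay above every WT library of its age, and the p16-null DMD group had the widest range. Tpx2 alone, at 80.8 CPM in WT at 9 months, exceeded the other 21 mitosis genes together. With Tpx2 included the order was different: the sum of all 22 genes was 80.6 to 117 CPM in WT at 9 months, 51.3 to 86.2 CPM in DMD and 30.3 to 128 CPM in p16-null DMD.

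**Figure D1:**
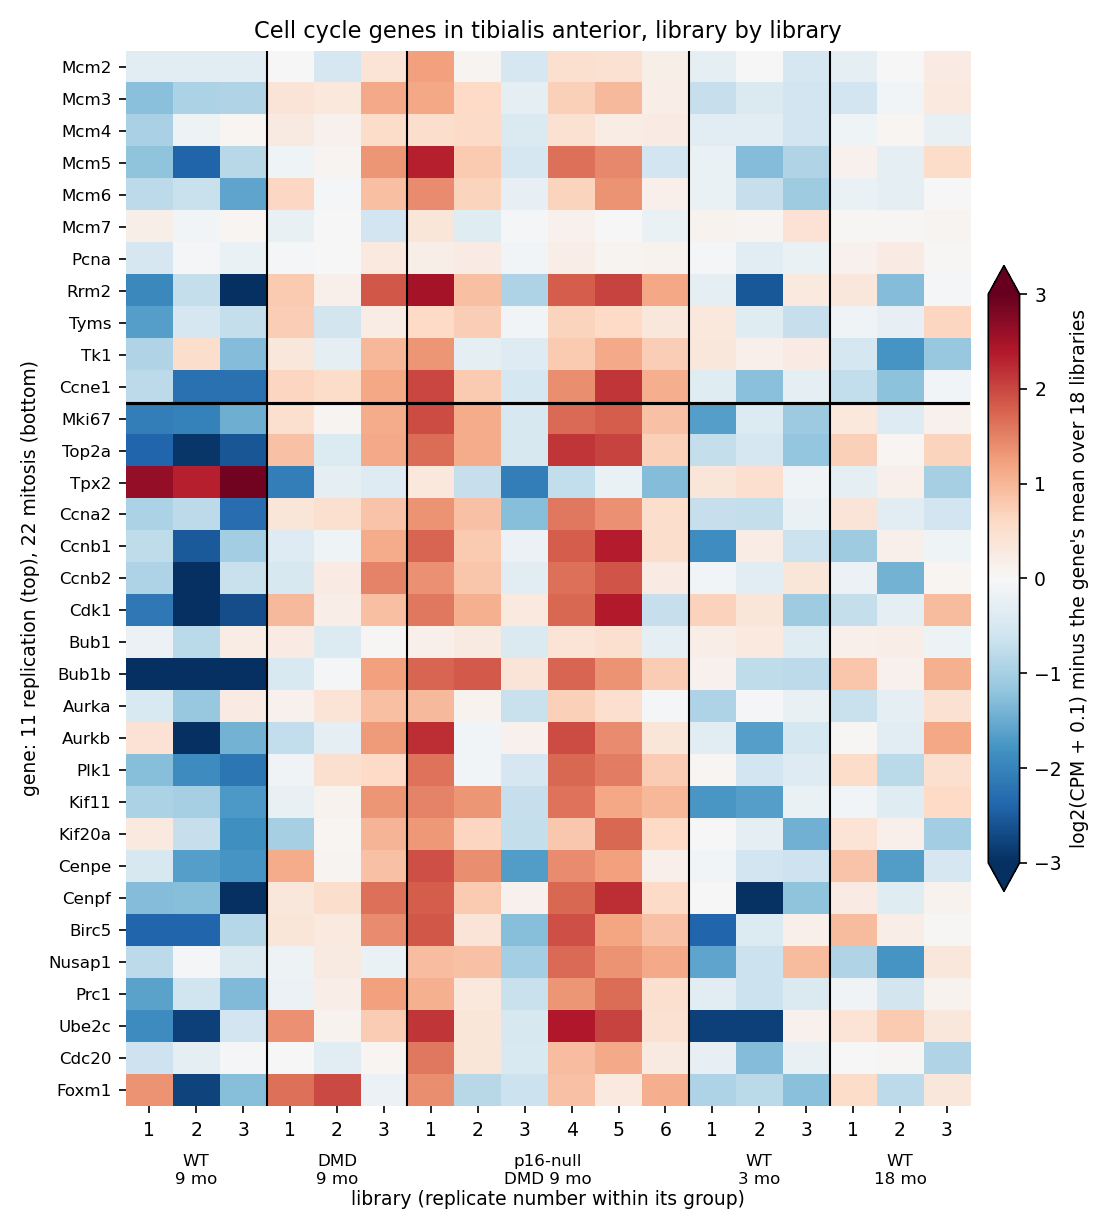
Level of the 33 genes (rows, 11 replication genes above 22 mitosis genes) in the 18 libraries (columns, by group), as log2(CPM + 0.1) minus the gene's mean over the libraries. Most rows are low in the 3 WT libraries of 9 months and high in the DMD and p16-null DMD libraries, while the Tpx2 row is highest in WT at 9 months and the p16-null DMD replicate 3 column is paler than its neighbours.

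**Figure D2:**
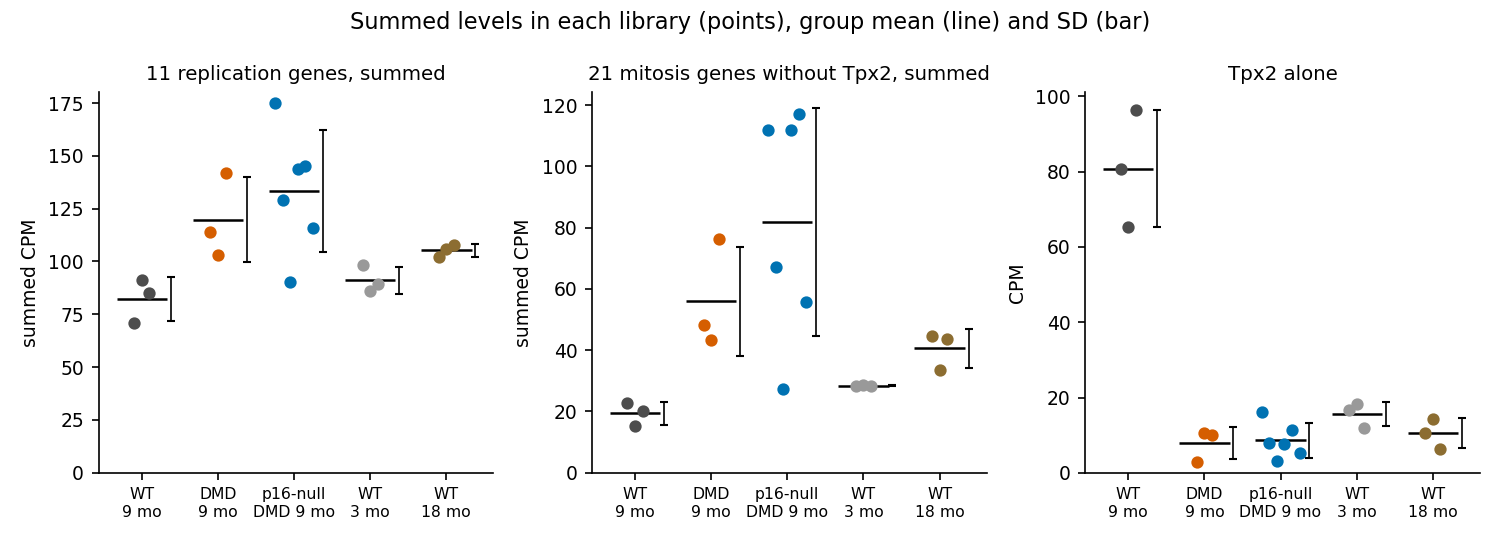
Summed CPM of the 11 replication genes, of 21 mitosis genes without Tpx2, and Tpx2 alone, with 1 point per library, a line at the group mean and a bar of 1 SD. The mitosis sum lies at 15.4 to 22.7 CPM in WT at 9 months and at 27.2 CPM or more in every dystrophic library, and Tpx2 runs the other way.

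Among the replication genes in DMD against WT at 9 months, 6 of 11 rose and none fell, against 26.4% of all genes tested that rose and 21.8% that fell. The genes that rose were Mcm3, Mcm5, Mcm6, Rrm2, Tyms and Ccne1. The median log2 fold change was 1.15 over the 11 genes, against 0.11 over all genes tested. By library totals these medians were 1.79 and 0.76, and 10 of the 11 genes were called higher, against 52% of all genes tested.

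Mcm3, a subunit of the replicative helicase, lay at 1.83, 2.30 and 2.39 CPM in the 3 WT libraries and at 5.97, 5.66 and 10.1 CPM in the 3 DMD libraries. The groups did not overlap, and the log2 fold change was 1.74 ± 0.38 (SE, adjusted p = 0.0016). Mcm6, another subunit of the ring, lay at 3.74, 4.05 and 2.11 CPM in WT and at 10.02, 6.19 and 12.2 CPM in DMD. Its groups did not overlap either, with a log2 fold change of 1.53 ± 0.43 (SE, adjusted p = 0.0084). Mcm5 lay at 1.04, 0.405 and 1.38 CPM in WT and at 2.35, 2.72 and 6.56 CPM in DMD, with DMD replicate 3 far above the rest of its group. Its log2 fold change was 1.98 ± 0.76 (SE, adjusted p = 0.042), and the call was lost without DMD replicate 3 (adjusted p = 0.18) and without any 1 of the WT libraries (adjusted p = 0.060 to 0.13).

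On the TMM scale, helicase subunits did not move as one. Mcm4 gave a log2 fold change of 0.63 ± 0.27 (SE, adjusted p = 0.068) and Mcm2 one of 0.36 ± 0.36 (adjusted p = 0.44), and neither passed the test. By library totals Mcm4 passed at 1.26 (adjusted p = 0.0019, edgeR) and Mcm2 at 1.02 (adjusted p = 0.026, edgeR). Under that scaling 52% of all genes tested were higher. Mcm7 lay at 17.6, 14.7 and 16.2 CPM in WT and at 13.3, 15.5 and 10.4 CPM in DMD. These overlapping groups gave a log2 fold change of -0.30 ± 0.21 (SE, adjusted p = 0.24), which was 0.33 by library totals. Mcm7 carries the microRNA genes Mir25, Mir93 and Mir106b within it, and whether reads from them entered its count was not tested.

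Of the nucleotide enzymes, Rrm2, the small subunit of ribonucleotide reductase, lay at 0.348, 0.946 and 0 CPM in WT and at 2.84, 1.81 and 6.18 CPM in DMD. The groups did not overlap, the log2 fold change was 3.19 ± 0.94 (SE, adjusted p = 0.011), and without DMD replicate 3 the adjusted p was 0.051. Tyms, which makes thymidylate, lay at 1.65, 3.78 and 3.22 CPM in WT and at 8.96, 3.63 and 6.31 CPM in DMD. Here DMD replicate 2 fell inside the WT range, and the log2 fold change of 1.15 ± 0.38 (SE, adjusted p = 0.020) was lost without DMD replicate 1 (adjusted p = 0.11) or WT replicate 1 (adjusted p = 0.089). Tk1, which salvages thymidine, gave 0.84 ± 0.55 (adjusted p = 0.23) and passed only without WT replicate 2 (adjusted p = 0.041) among the left-out libraries.

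Pcna, the clamp that holds the polymerase on DNA, was the most abundant replication gene. It lay at 28.9, 40.4 and 36.03 CPM in WT and at 39.5, 41.2 and 50.1 CPM in DMD, overlapping ranges with a log2 fold change of 0.32 ± 0.15 (SE, adjusted p = 0.094). This value depended on the scaling. By library totals Pcna gave 0.96 (adjusted p = 0.00034, edgeR), where 52% of all genes tested were higher. On log2(TPM + 1) it gave 1.06 (adjusted p = 0.00012, limma), where 54.4% were higher. Ccne1, the cyclin that starts S phase, had 2 counts over the 3 WT libraries and 35 over the DMD libraries. That is a ratio of 10.7 once library size is taken into account, with a 95% interval of 2.76 to 92.22 that covers counting error only (adjusted p = 0.020). With DMD replicate 3 left out the adjusted p for Ccne1 was 0.054, and with WT replicate 2 or 3 left out it was 0.061 and 0.074. Ccne1 passed the expression filter only with the p16-null DMD libraries in the fit.

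Among the mitosis genes in DMD against WT, 13 of 22 rose, 1 fell (Tpx2) and 8 did not pass the test, with the same 26.4% and 21.8% of all genes tested as the background. The median log2 fold change of the 22 was 1.90, and by library totals it was 2.57, with 15 genes higher and Tpx2 lower. Under that scaling 52% of all genes tested were higher and 8.38% lower. Leaving out DMD replicate 3 left 3 of 11 replication and 6 of 22 mitosis genes higher, the lowest of the left-out libraries. In that run 22.4% of all genes tested were higher, a share near that of the members. Mitosis genes called higher numbered 8 without WT replicate 2 and 7 without WT replicate 3, against 22.6% and 22.7% of all genes. These genes are low in WT, so few counts stand behind each fold. A fit of the WT and DMD libraries alone tested 10 replication and 19 mitosis genes. Of these, 4 and 9 were higher, against 25.5% of all genes tested. Ccne1, Bub1b, Birc5 and Ube2c were not tested there, as they passed the expression filter only with the p16-null DMD libraries included.

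Mki67, the proliferation antigen that coats mitotic chromosomes, lay at 1.04, 1.08 and 1.65 CPM in WT and at 6.61, 5.02 and 10.3 CPM in DMD. All 3 DMD libraries were above all 3 WT libraries, with a log2 fold change of 2.52 ± 0.54 (SE, adjusted p = 0.0015). Top2a, the topoisomerase that untangles sister chromatids, lay at 0.435, 0.270 and 0.368 CPM in WT and at 4.98, 1.97 and 5.99 CPM in DMD. Its groups did not overlap and its log2 fold change was 3.53 ± 0.73 (SE, adjusted p = 0.0010). Both held their call in every alternative run, as did Cdk1, Cenpf, Mcm3, Mcm6 and the fall of Tpx2.

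Cdk1, the kinase that drives entry into mitosis, had 3 counts over the WT libraries and 90 over the DMD libraries. In CPM these were 0.174, 0 and 0.0919 against 2.28, 1.28 and 2.17, groups well apart, and the counting ratio was 18.4 with a 95% interval of 6.11 to 91.0 (adjusted p = 0.0022). Bub1b, a kinase of the spindle checkpoint, had no count in WT and 49 in DMD. Set against a floor of 3 counts over the WT group it was at least 10-fold higher (adjusted p = 0.00099), with DMD libraries at 0.498, 0.694 and 1.85 CPM. Birc5, the survivin subunit of the chromosomal passenger complex, had 2 counts in WT and 38 in DMD, a ratio of 11.7 with a 95% interval of 3.02 to 99.83 (adjusted p = 0.028). The Birc5 call was lost without DMD replicate 3 (adjusted p = 0.091) and without WT replicate 1 (0.098) or 2 (0.080).

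Ccna2, the cyclin that serves both S phase and G2, lay at 1.304, 1.486 and 0.460 CPM in WT and at 3.41, 3.74 and 4.84 CPM in DMD. The ranges were apart and the log2 fold change was 1.91 ± 0.61 (SE, adjusted p = 0.018), but without DMD replicate 3 the adjusted p was 0.053 and without WT replicate 3 it was 0.080. Ccnb2 gave 2.04 ± 0.81 (adjusted p = 0.049), a call lost under 8 alternatives with adjusted p of up to 0.24, and Ccnb1 gave 1.72 ± 0.75 (adjusted p = 0.072). Of the kinesins and kinetochore proteins, Cenpf gave 2.94 ± 0.72 (adjusted p = 0.0036), Cenpe 2.05 ± 0.77 (adjusted p = 0.039) and the spindle motor Kif11 1.90 ± 0.64 (adjusted p = 0.023). Prc1, which bundles the midzone, gave 1.76 ± 0.57 (adjusted p = 0.019). Plk1 and Ube2c, with 5 WT counts each, gave 2.55 ± 0.82 (adjusted p = 0.019) and 2.74 ± 1.03 (adjusted p = 0.039). All of these but Cenpf lost their call without at least 1 library. Without WT replicate 3 the adjusted p was 0.13 for Cenpe, 0.086 for Kif11, 0.064 for Prc1 and 0.070 for Plk1, and without WT replicate 1 it was 0.12 for Ube2c. Without DMD replicate 3 it was 0.14 for Kif11 and 0.11 for Prc1.

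The mitosis genes that did not pass were not all low. Bub1, the partner kinase of the checkpoint, lay at 4.70, 2.97 and 6.25 CPM in WT and at 6.26, 3.95 and 5.41 CPM in DMD. Its ranges were nearly the same, with a log2 fold change of 0.16 (adjusted p = 0.73). Cdc20, the activator of the anaphase-promoting complex, gave 0.24 (adjusted p = 0.70), Nusap1 0.44 (adjusted p = 0.57), Kif20a 0.77 (adjusted p = 0.36), Aurka 0.87 (adjusted p = 0.13) and Aurkb 1.11 (adjusted p = 0.34). Foxm1, itself a regulator of the set, lay at 1.65, 0 and 0.184 CPM in WT and gave 1.41 (adjusted p = 0.25), and without WT replicate 1 it passed at 3.95 (adjusted p = 0.021).

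**Figure D3:**
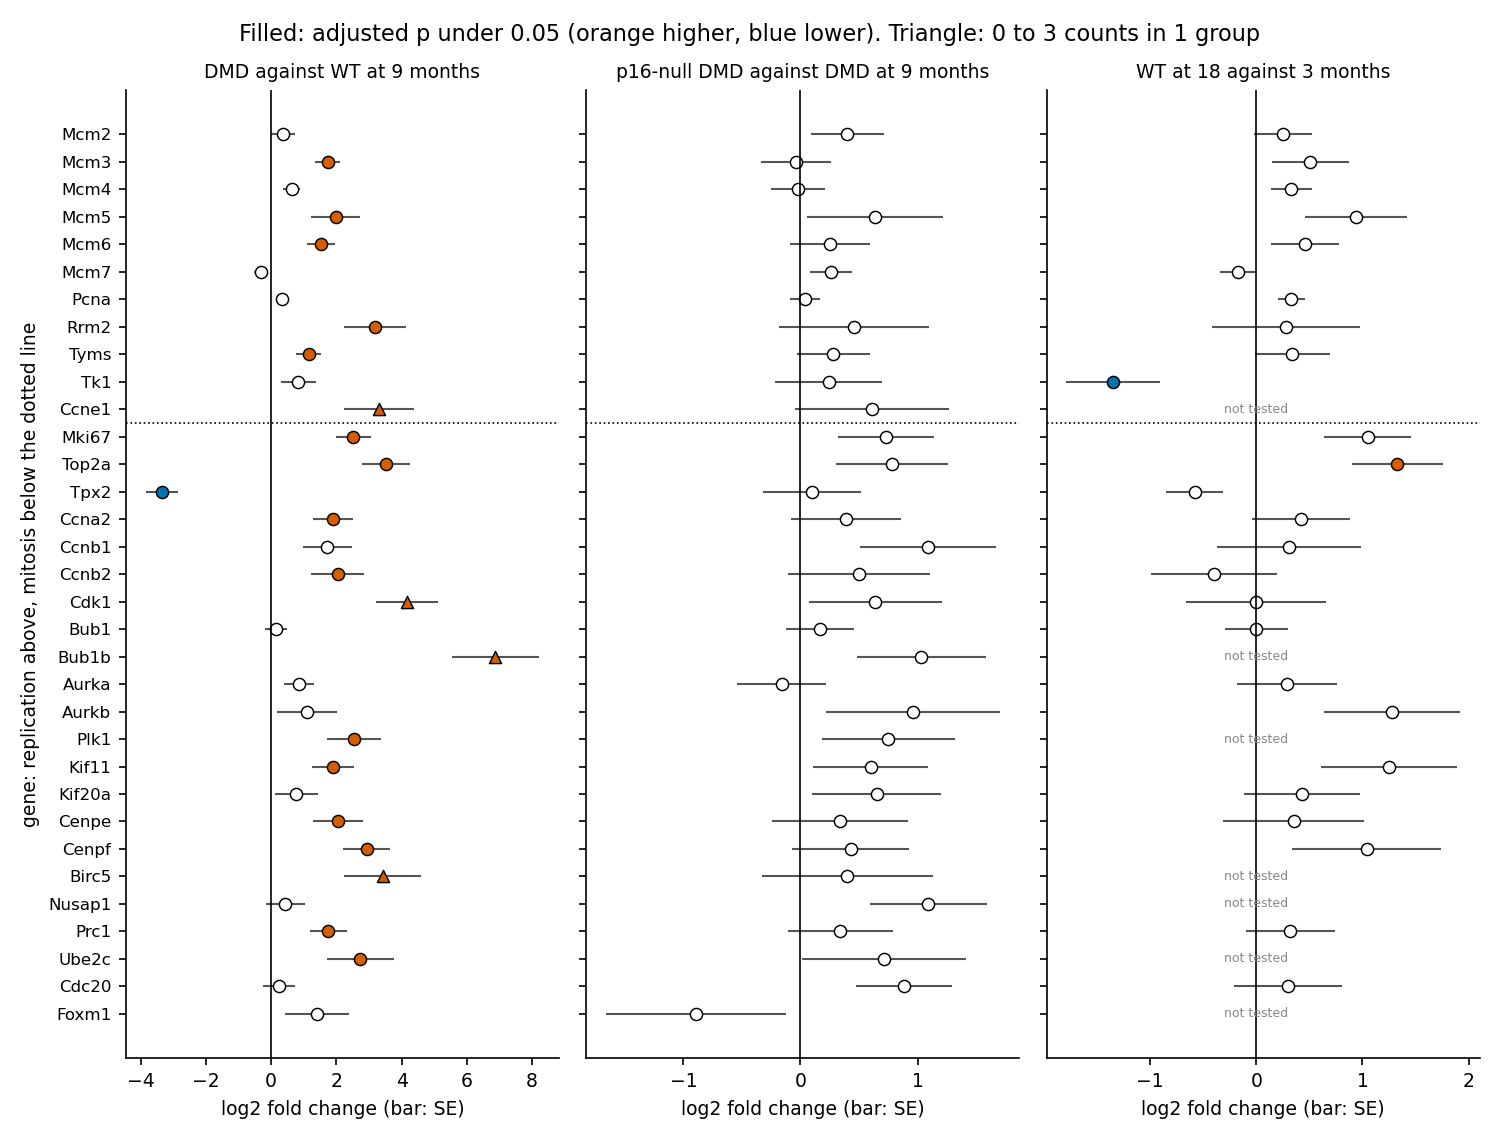
Log2 fold change ± SE of each gene in DMD against WT, p16-null DMD against DMD (both 9 months) and WT at 18 against 3 months, with filled points for adjusted p under 0.05 and triangles for genes with 0 to 3 counts in 1 group, whose fitted value is no bound. The left panel has 19 genes filled higher and Tpx2 filled lower, the middle panel has none filled, and the right panel has Top2a and Tk1 filled.

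Markers of other cell types moved too in DMD against WT, where 26.4% of all genes tested rose and 21.8% fell. All 8 macrophage markers rose, and their sum was 352 to 383 CPM in WT and 2130 to 3340 CPM in DMD. All 5 fibroblast markers rose, with sums of 1860 to 1990 CPM in WT and 4540 to 8800 CPM in DMD, and 3 of 4 tested lymphocyte markers rose, with sums of 1.84 to 2.17 CPM and 8.91 to 17.1 CPM, where Ms4a1, a B cell marker, was at 0 in WT. Of 5 satellite cell and myoblast markers 2 rose (Myf5 and Mymk) and 1 fell (Myod1), with sums of 62.4 to 126 CPM and 79.0 to 222 CPM. Of 5 endothelial markers none rose and 2 fell, and 2 rose and none fell by library totals. Under that scaling 52% of all genes tested rose and 8.38% fell. All 5 myofibre markers with an entry fell, as did both red blood cell markers tested. In whole-muscle RNA, fewer cells of a type and less RNA per cell cannot be told apart, and the part of these shifts in the cell cycle results was not tested.

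Tpx2 went against the rest of its group. It lay at 80.8, 65.2 and 96.5 CPM in WT at 9 months and at 2.99, 10.7 and 9.94 CPM in DMD, a log2 fold change of -3.35 ± 0.50 (SE, adjusted p = 8.5e-05) with no overlap. In p16-null DMD it lay at 3.03, 7.83 and 16.3 CPM (lowest, median and highest of 6), in WT at 3 months at 16.7, 18.3 and 12.01 CPM, and in WT at 18 months at 10.6, 14.4 and 6.44 CPM. WT at 9 months was therefore the high group, above both the younger and the older WT libraries, though these ages were not tested against each other. WT libraries of 9 months held 2462 Tpx2 counts against 38 for Mki67 and 11 for Top2a, which also mark dividing cells.

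The gene next after Tpx2 in the RefSeq gene table is Mylk2, the myosin light chain kinase of skeletal muscle, and it was examined because Tpx2 moved against its list. Mylk2 lay at 1142, 1088 and 1163 CPM in WT at 9 months and at 180, 169 and 169.9 CPM in DMD, a log2 fold change of -2.70 ± 0.41 (SE, adjusted p = 9.9e-05). In p16-null DMD it lay at 80.2 to 315 CPM, in WT at 3 months at 909, 948 and 907 CPM and in WT at 18 months at 269.6, 416 and 284 CPM. The other genes around it did not share the fall: Bcl2l1, on the other side of Tpx2, gave 0.36 ± 0.24 (adjusted p = 0.22), Foxs1 0.66 (adjusted p = 0.20) and Cox4i2 -0.37 (adjusted p = 0.56).

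Set beside each other, Tpx2 had 7.07, 6 and 8.3 counts per 100 Mylk2 counts in the WT libraries of 9 months. The ratio was 1.66, 6.3 and 5.85 in DMD, and the p16-null DMD libraries ran from 2.60 to 6.57. The WT libraries of 3 months ran from 1.32 to 1.93, where the Mylk2 level was nearly that of 9 months, and those of 18 months from 2.27 to 3.93. Both genes were low in the dystrophic groups and high in WT at 9 months, and in WT at 3 months Mylk2 was high while Tpx2 was not. Apart from a small nucleolar RNA, no gene overlaps Tpx2 in the RefSeq annotation, and whether reads of its neighbour entered its count was not tested.

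Another mitosis gene, Espl1 (separase, which cuts the cohesin rings at anaphase), came from a separate list and also fell, at a mean of 10.7 CPM in WT at 9 months, 1.19 in DMD, 2.96 in p16-null DMD, 10.9 in WT at 3 months and 2.80 in WT at 18 months. Its log2 fold change was -3.14 ± 0.48 in DMD against WT (SE, adjusted p = 9.6e-05) and -1.95 ± 0.27 in WT at 18 against 3 months (SE, adjusted p = 0.00019).

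**Figure D4:**
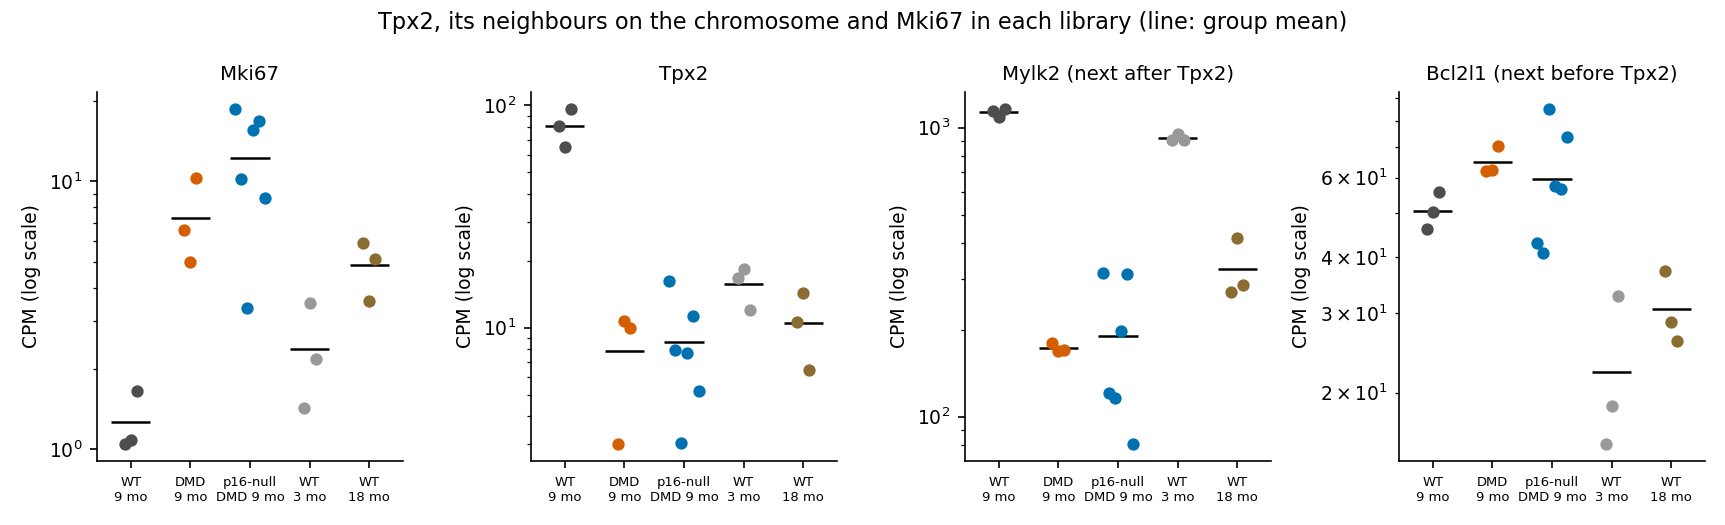
CPM on a log axis of Mki67, Tpx2 and the genes on either side of Tpx2, Mylk2 and Bcl2l1, with 1 point per library and a line at each group mean. Tpx2 stands at 65.2 to 96.5 CPM in WT at 9 months and at 18.3 CPM or less in the other 4 groups, and Mylk2 is high in WT at 3 and 9 months and lower in the other groups.

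The p16-null DMD group was also set against WT at 9 months, a contrast that shares its WT libraries with the one above and so is not independent of it. Of the replication genes 8 of 11 were higher and none lower, and of the mitosis genes 16 of 22 were higher and Tpx2 was lower, against 27.5% of all genes tested higher and 22.7% lower (54.5% and 8.45% by library totals, where 11 replication and 20 mitosis genes were higher and Tpx2 lower). These counts include Ccne1, Bub1b, Birc5 and Ube2c, which passed the expression filter only with the p16-null DMD libraries, where they are high. The medians were 1.43 for replication and 2.45 for mitosis genes on the log2 scale. Mcm2, Mcm7 and Tk1 among the replication genes, and Bub1, Aurka, Aurkb, Kif20a and Foxm1 among the mitosis genes, did not pass.

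Mki67 lay at 3.37, 12.9 and 18.7 CPM in p16-null DMD (lowest, median and highest of 6), all above the highest WT library at 1.65 CPM, with a log2 fold change of 3.25 ± 0.51 (SE, adjusted p = 0.00011). Top2a lay at 1.88, 7.37 and 12.3 CPM, also without overlap, and gave 4.31 ± 0.69 (adjusted p = 0.00012). Rrm2 lay at 0.799, 4.80 and 9.58 CPM, and its lowest library was inside the WT range, with a log2 fold change of 3.65 ± 0.88 (SE, adjusted p = 0.0031). Mcm5 lay at 1.69, 5.79 and 13.3 CPM, above the WT libraries in all 6, and gave 2.63 ± 0.71 (adjusted p = 0.0062).

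Genes with few WT counts also lay higher. Of these, Ccne1, Birc5 and Bub1b entered the test only through the p16-null DMD libraries, so their rise is no separate support. Cdk1 had a counting ratio of 28.9 (95% interval 9.80 to 141.2), Birc5 of 16 (4.33 to 134.3) and Ccne1 of 15.9 (4.29 to 133), and Bub1b was at least 20.6-fold higher than the WT floor of 3 counts. Ccnb1, which did not pass in DMD, passed here at 2.81 ± 0.70 (adjusted p = 0.0037), as did Nusap1 (1.53, adjusted p = 0.029), Cdc20 (1.12, adjusted p = 0.041), Mcm4 (0.61, adjusted p = 0.047) and Pcna (0.36, adjusted p = 0.036). Calls of the last 4 were lost under 5 to 10 alternatives each. Whether these genes differ between the dystrophic groups is the next comparison.

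Between p16-null DMD and DMD no member passed the test, in a contrast where 0% of all genes tested were higher and 0.00676% (1 of 14801) lower. At unadjusted p under 0.05 there were 764 genes in all (5.16%) and 2 members, Nusap1 at a log2 fold change of 1.09 ± 0.50 (adjusted p = 0.92, edgeR) and Cdc20 at 0.88 ± 0.41 (adjusted p = 0.92, edgeR). DESeq2 also called 0 members. The estimates were positive for 9 of 11 replication genes and 20 of 22 mitosis genes, against 53.2% of all genes, with medians of 0.26 and 0.62 on the log2 scale. Members of 1 library rise and fall together, so these are not independent signs, and leaving out 1 library gave 25 (without DMD replicate 2) to 32 (without DMD replicate 3) positive members of 33.

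For the members that carried the contrast with WT, the ranges of both dystrophic groups overlapped. Mki67 lay at 6.61, 5.02 and 10.3 CPM in DMD and at 3.37, 12.9 and 18.7 CPM (lowest, median, highest) in p16-null DMD, with a log2 fold change of 0.73 ± 0.41 (SE, adjusted p = 0.94). Top2a gave 0.78 ± 0.48 (adjusted p = 0.94), with 4.98, 1.97 and 5.99 CPM in DMD inside the p16-null DMD range of 1.88 to 12.3 CPM. Mcm3 gave -0.04, Mcm4 -0.02 and Pcna 0.04, the replication genes nearest to no difference. Foxm1 had the lowest estimate at -0.89 ± 0.77, and Ccnb1 and Bub1b had estimates of 1.09 ± 0.58 and 1.03 ± 0.55.

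The p16-null DMD libraries differed widely among themselves. The mitosis sum without Tpx2 was 112, 67.1, 27.2, 112, 117 and 55.7 CPM in replicates 1 to 6, a 4.29-fold range. Replicate 3 had the lowest level of all 9 dystrophic libraries for 7 of 11 replication genes and 14 of 22 mitosis genes. Replicate 1 was the highest for 7 replication genes, and replicates 1, 4 and 5 shared the highest level of 20 mitosis genes (6, 7 and 7). With replicate 3 left out, 31 of 33 members were positive against DMD and still none passed, and 28 members instead of 24 were higher than in WT. Over all genes tested 26.9% were then higher than in WT, against 27.5% with every library.

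Macrophage marker sums in these libraries were 4180, 1990, 1540, 2000, 2710 and 1410 CPM in replicates 1 to 6, and 2130, 2170 and 3340 CPM in the DMD libraries. Among the p16-null DMD libraries, replicate 1 was high and replicates 3 and 6 low on both macrophage markers and mitosis genes. Replicate 4 had a high mitosis sum at a middling macrophage sum. The DMD libraries had mitosis sums without Tpx2 of 48.3, 43.4 and 76.3 CPM. DMD replicates 1 and 2 thus lay below p16-null DMD replicate 6 (55.7 CPM), at higher macrophage sums. Satellite cell and myoblast sums of the p16-null DMD libraries ran otherwise, at 109, 170, 299, 230, 148 and 312 CPM, with replicates 3 and 6 at the top. Fibroblast sums were 7550, 9610, 4770, 13700, 9350 and 6290 CPM and lymphocyte sums 9.65, 10.2, 3.25, 10.6, 8.98 and 7.73 CPM, both lowest in replicate 3. No marker of these lists passed the test between the dystrophic groups, and the part of these cells in the spread of the members was not tested.

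**Figure D5:**
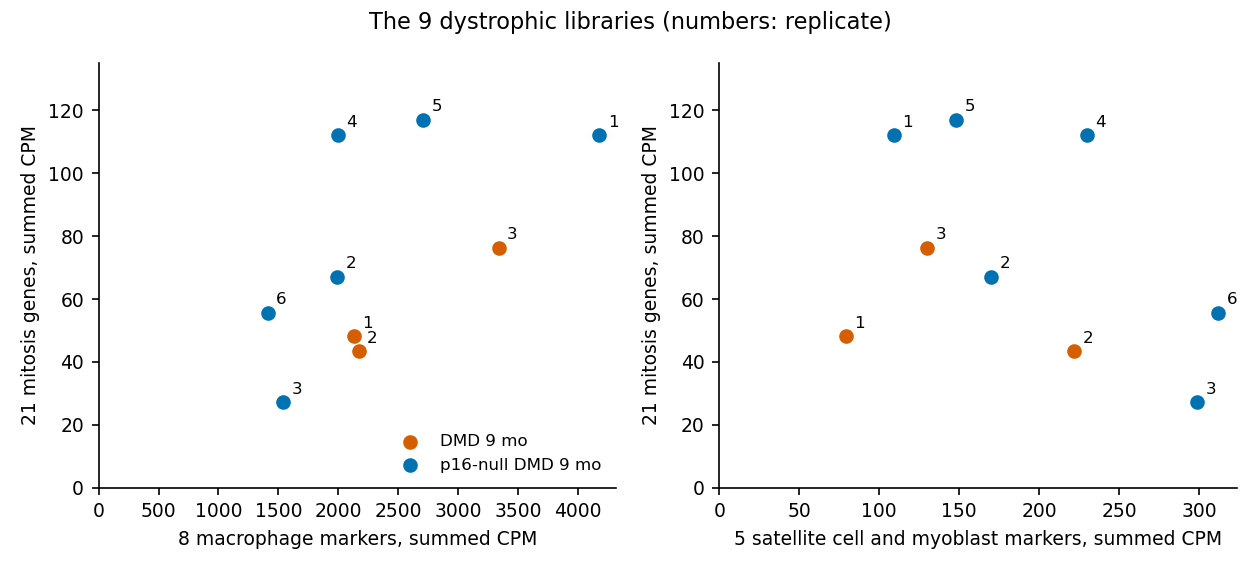
Summed CPM of 21 mitosis genes without Tpx2 (vertical axis) in the 9 dystrophic libraries against the summed CPM of 8 macrophage markers and of 5 satellite cell and myoblast markers, with replicate numbers beside the points. The p16-null DMD replicate 3 is lowest on the vertical axis at 27.2 CPM, with 1540 CPM of macrophage markers and 299 CPM of satellite cell and myoblast markers.

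In WT muscle at 18 against 3 months, few members moved. Of the 10 replication genes tested (of 11) none was higher and Tk1 was lower, and of the 16 mitosis genes tested (of 22) Top2a was higher and none was lower, against 9.31% of the 13487 genes tested higher and 10.1% lower (19.3% and 4.83% by library totals). Ccne1, Bub1b, Plk1, Birc5, Nusap1, Ube2c and Foxm1 were too low to enter this test. The medians of the tested genes were 0.33 for replication and 0.34 for mitosis on the log2 scale, against 0 for all genes.

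Top2a lay at 1.60, 1.85 and 1.14 CPM at 3 months and at 4.44, 2.79 and 4.29 CPM at 18 months, without overlap, and its log2 fold change was 1.33 ± 0.43 (SE, adjusted p = 0.042). The call did not hold without any 1 of the 3-month libraries (adjusted p = 0.059 to 0.11), nor without replicate 1 (0.16) or 3 (0.14) of 18 months. Tk1 lay at 4.26, 3.70 and 3.97 CPM at 3 months and at 2.26, 0.898 and 1.46 CPM at 18 months, also without overlap, with a log2 fold change of -1.35 ± 0.44 (SE, adjusted p = 0.044). It lost its call without any 1 of the 3-month libraries (adjusted p = 0.077 to 0.097), without replicate 2 (0.15) or 3 (0.12) of 18 months, and by library totals (0.084).

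Mki67 lay at 1.42, 3.504 and 2.175 CPM at 3 months and at 5.88, 3.59 and 5.15 CPM at 18 months. Its groups did not overlap, but the log2 fold change of 1.05 ± 0.41 (SE) did not pass (adjusted p = 0.087). Pcna gave 0.33 ± 0.13 (adjusted p = 0.10), Mcm5 0.94 ± 0.48 (adjusted p = 0.20), Aurkb 1.28 ± 0.64 (adjusted p = 0.19) and Tpx2 -0.58 ± 0.27 (adjusted p = 0.15). All 8 macrophage markers and 4 of 5 satellite cell and myoblast markers rose in this contrast and 3 of 5 fibroblast markers fell. Of 2 lymphocyte markers tested 1 rose. All 5 myofibre markers with an entry, 2 of 5 endothelial markers and both red blood cell markers tested fell. Over all genes tested 9.31% rose and 10.1% fell. Macrophage markers summed to 316 to 492 CPM in the younger libraries and to 586 to 856 CPM in the older ones. Satellite cell and myoblast markers summed to 43.8 to 52.2 CPM and to 347 to 368 CPM. Their part in the Top2a and Tk1 values was not tested.

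Other cell cycle genes, taken from lists that hold none of the members, gave a mixed picture in DMD against WT. Of 30 other replication genes tested, 5 rose and 3 fell, with a median log2 fold change of 0.36, shares below the 26.4% and 21.8% of all genes tested. The smallest p-values belonged to Dut, which removes dUTP (-0.98 ± 0.18, adjusted p = 0.00046), Rrm1, the large subunit that pairs with Rrm2 (-0.68 ± 0.16, adjusted p = 0.0025), and the origin recognition subunit Orc6 (1.87 ± 0.60, adjusted p = 0.017). Rrm1 had a mean of 41.2 CPM in WT and 25.5 in DMD, so it went down where Rrm2 went up. By library totals the falls of Dut (-0.34, adjusted p = 0.13) and Rrm1 (-0.04, adjusted p = 0.84) did not pass, and 16 of the list rose and none fell, against 52% of all genes higher under that scaling.

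Of 35 other mitosis genes tested 9 rose and Espl1 fell, with a median of 1.33. The count that rose is near the 26.4% of all genes tested, and by library totals 23 rose, against 52% of all genes. Beside Espl1, the smallest p-values in this list were those of Cenpa, the histone of the centromere, and the motor Kif15, with 2 and 3 counts over the WT libraries. Their counting ratios in DMD were 21.2 (95% interval 5.65 to 178.4) and 12.7 (4.15 to 63.21), with adjusted p of 0.0020 and 0.0032.

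Of 26 G1 cyclins, kinases and E2F and Rb factors, 11 rose and 5 fell, with a median of 0.75, against the same 26.4% and 21.8%. By library totals 18 rose and 1 fell, against 52% and 8.38% of all genes tested. Among the genes of smallest p were 2 D-type cyclins, which act at the start of the cycle. Ccnd1 rose from a mean of 12.2 to 30.4 CPM (1.32 ± 0.21, adjusted p = 0.00012) and Ccnd2 from 28.1 to 65.8 CPM (1.23 ± 0.19, adjusted p = 9.9e-05). E2f6, a repressor of the E2F family, fell from 160 to 57.5 CPM (-1.47 ± 0.16, adjusted p = 8.3e-06).

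Among 11 CDK inhibitors and anti-proliferative genes tested, 8 rose and 2 fell, against 26.4% and 21.8% of all genes tested. Cdkn2a had 3 counts over the WT libraries and 712 over the DMD libraries, a ratio of 146 (95% interval 49.7 to 708.4, adjusted p = 6.4e-07). Btg1 rose from 37.1 to 134 CPM (1.85 ± 0.20, adjusted p = 6.7e-06), and Tob1, also of the BTG/TOB family of growth suppressors, fell from 308 to 54.6 CPM (-2.49 ± 0.27, adjusted p = 7.7e-06). Against WT, p16-null DMD had 10 of 30 other replication genes higher and 3 lower, and 23 of 35 other mitosis genes higher and 1 lower. It had 14 of 26 G1 factors higher and 3 lower, and 7 of 11 inhibitors higher and 2 lower. Over all genes tested 27.5% were higher and 22.7% lower in that contrast. No gene of these 4 lists passed between p16-null DMD and DMD. In WT at 18 against 3 months the genes higher and lower were 2 and 2 of 25 other replication genes, 2 and 1 of 18 other mitosis genes, 3 and 2 of 22 G1 factors and 3 and 2 of 9 inhibitors, against 9.31% and 10.1% of all genes tested. Chosen after its values were seen, Cdkn1a, the p21 inhibitor, rose there from 6.54 to 180 CPM (4.80 ± 0.29, adjusted p = 7.9e-08).

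The pattern over the 18 libraries most like the mitosis sum without Tpx2 was that of Evi2a, at a Spearman rho of 0.938, then Degs1 at 0.926 and Clec4a2 at 0.924. These describe the 18 libraries among 12741 genes compared. They share the large step between WT and dystrophic groups, so no test was made.

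Genes that overlap another gene on the map may share reads with it, and the strand setting of the counting is not given in the sources used here. In RefSeq 12 members overlap another gene, 7 of them a protein-coding one: Rrm2 with Cys1, Aurka with Fam210b, Plk1 with Ern2, Kif11 with Ide, Kif20a with Cdc23, Nusap1 with Ndufaf1 and Foxm1 with Tex52. Ern2 was at 0 in all groups beside Plk1. Tex52, beside Foxm1, was at 0 in every WT and p16-null DMD library of 9 months and at 1.85 CPM in DMD replicate 3. Ndufaf1, a mitochondrial assembly factor, was far above Nusap1 and fell (-1.65 ± 0.26 in DMD against WT), and Ide, at a mean of 119 CPM in WT, gave -0.71 while Kif11 rose. The values of these 7 members, other than Plk1, are uncertain to that extent.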

How the data were processed

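RNA-seq of tibialis anterior was analysed in 18 rat libraries in 5 groups taken from the sample labels. Total RNA came from frozen muscle sections (RNeasy) and libraries were made with a TruSeq RNA kit, per the labels' protocols. The deposited tables hold estimated counts and TPM per gene. The submitters' processing notes name Trimmomatic, FastQC, STAR 2.7.10b, RSEM 1.3.3 and the build mRatBN7.2. Strand and overlap handling: not given in the sources used here. The deposited expected counts (4.5% of values not whole) were rounded. TPM, as deposited by the authors, served for levels between genes and for an alternative. Entries without a symbol (7162 of 30560) held 3.64 to 17.6% of the counts of a library and stayed in library sizes and tests.

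The 3 groups of 9 months were fitted together (14801 genes) and WT at 3 and 18 months separately (13487 genes) in edgeR 4.0.16 (R 4.3.3) with its expression filter, TMM scaling, the quasi-likelihood test and Benjamini-Hochberg adjustment over all genes tested; a call is an adjusted p under 0.05. The SE is the log2 fold change divided by the square root of F. The biological coefficient of variation was 0.26 and 0.176. Totals of 9607819 to 21992631 estimated counts per library leave genes with few WT counts imprecise. A group at 0 counts was set to a floor of 3 counts over the group, and for 1 to 3 counts the exact 95% binomial interval of the ratio is given, for counting error only. In simulated counts the DMD against WT fit recovered 36% of 2-fold and 81% of 4-fold changes over 14546 genes, and the p16-null DMD against DMD fit 62% and 89% over 14533 genes. Only 100 genes of each size were changed, all with a mean above 1 CPM. These rates therefore do not describe members below that level, nor a contrast in which many more genes change.

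The members and gene lists were chosen with earlier results of these data known. Named genes are all members, Dmd and Cdkn2a, the 3 genes of smallest p in DMD against WT from each of 4 other lists, the neighbours of a member that moved against its list, and the 3 genes most like the mitosis sum. Outside this rule, marker genes, genes overlapping a member and Cdkn1a are named, chosen after their values were seen. Alternatives were RLE scaling, library totals, no or a stricter filter, DESeq2 1.42.0, limma 3.58.1 on log2(TPM + 1) and log2(TPM + 0.1), other samples in the fit, a replicate block, and leaving out each library. Promoters are RefSeq windows of GRCr8, matched by symbol for 26 members.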

Additional observations from a re-analysis of the deposited data

How the results depend on the processing

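The main limits are low counts in WT, 3 libraries in most groups and the scaling. Of 20 members called in DMD against WT, 7 held under every alternative, of 25 in p16-null DMD against WT 16 did, and of 2 in WT at 18 against 3 months none did. Members called between p16-null DMD and DMD numbered 0 under every alternative. The cause of each change below was not tested.

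By library totals, genes higher and lower numbered 7691 and 1240 in DMD against WT, 8071 and 1251 in p16-null DMD against WT, and 2609 and 652 in WT at 18 against 3 months. With limma on log2(TPM + 1) they numbered 8058 and 1044, 8818 and 983, and 3031 and 429, and on log2(TPM + 0.1) 8318 and 1035, 9036 and 970, and 2938 and 417. Under each of these 3 settings 10 replication genes were higher in DMD than in WT, and at 18 against 3 months 1 replication gene was higher and 0 lower. By library totals 2 mitosis genes were higher at 18 months. Mcm7 turned positive by library totals, log2(TPM + 1) and log2(TPM + 0.1): 0.33, 0.39 and 0.43 in DMD against WT, and 0.56, 0.63 and 0.69 in p16-null DMD against WT.

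For p16-null DMD against DMD, DESeq2 called 2 genes higher and 13 lower. In one fit of all 18 libraries, WT at 18 against 3 months had 868 genes lower, 0 mitosis genes higher and 0 replication genes lower.

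Leaving out 1 library at a time, DMD against WT had 6 to 12 mitosis genes and 3 to 6 replication genes higher, with the lowest of both without DMD replicate 3. In these runs 22.4% to 24.3% of all genes tested were higher. Bub1 turned to -0.06 without WT replicate 2 and to -0.01 without DMD replicate 1. For p16-null DMD against DMD, 0 to 5 genes were higher and 1 to 80 lower, the highest of both without DMD replicate 1, and Tpx2, at 0.10 with all libraries, ran from -0.27 without that library to 0.38 without DMD replicate 2, with -0.18 without p16-null DMD replicate 1. Mcm7 in p16-null DMD against WT ran from -0.12 without p16-null DMD replicate 1 to 0.02 without WT replicate 1 and without p16-null DMD replicate 2. In WT at 18 against 3 months, 843 to 1255 genes were lower, the fewest without 18-month replicate 1, and 0 to 1 mitosis genes were higher and 0 to 1 replication genes lower.

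Same-numbered libraries did not deviate together (correlations of -0.20 to 0.06), so the numbers do not pair the samples. With the replicate number as a block, p16-null DMD against DMD had 0 genes lower, p16-null DMD against WT had 10 mitosis genes higher, and WT at 18 against 3 months had 0 mitosis genes higher and 1 lower. Replicate numbers 4 to 6 occur only in the p16-null DMD group, so each of these blocks held 1 library. The blocked p16-null DMD contrasts therefore rested on its replicates 1 to 3, and fewer libraries and blocking cannot be told apart there. In DMD against WT the block left 5 replication and 9 mitosis genes higher. With the block, 24.1% of all genes were higher in DMD against WT and 22.5% in p16-null DMD against WT.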
